A study of Mus musculus with 16 samples.

Results

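Toll-like receptors are the membrane proteins through which cells sense microbial lipids, proteins and nucleic acids. The genes described here are 10 of the 56941 in the count table: the surface receptors Tlr1, Tlr2, Tlr4 and Tlr6, the endosomal receptor Tlr3, the lipopolysaccharide (LPS) co-receptors Cd14, Ly96 and Lbp, and the adaptors Ticam1 and Ticam2. They were chosen by gene symbol, and all 10 were found in the table. RNA was sequenced in bulk from primary murine gingival fibroblasts (mGF), connective tissue cells grown from gum explants of wild-type C57Bl6 mice 3 to 6 months old and used between passages 2 and 8. The 16 libraries held 4 each of BSA (control), the albumin vehicle, of 1 ng/mL mouse recombinant IL-1β, of 200 µM palmitate carried on BSA, and of palmitate + IL-1β at the same doses, treated for 24 h. Palmitate is a saturated fatty acid, and IL-1β is an inflammatory cytokine. The labels give all conditions the same genotype and tissue and do not say whether the IL-1β libraries also received BSA. The study's text describes cells given BSA with or without IL-1β. No label says whether the 4 libraries of a condition came from separate mice or cultures, so p-values measure the spread between libraries.

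In this family, Tlr2 pairs with Tlr1 or Tlr6 to bind bacterial lipopeptides. Tlr4 binds LPS together with Ly96 (MD-2), after Lbp has carried LPS to Cd14 and Cd14 has handed it on. Most Toll-like receptors signal through the adaptor Myd88 to NF-κB, whereas Tlr3, which binds double-stranded RNA, signals through Ticam1 (TRIF), and Tlr4 uses Ticam1 with Ticam2 (TRAM) for its interferon branch. The IL-1 receptor also signals through Myd88. Gum tissue lies beside the dental biofilm, and its fibroblasts can answer bacterial products with cytokines and chemokines.

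On the GRCm39 assembly with GENCODE vM39 genes, Tlr1 (ENSMUSG00000044827) lay at chr5:65082022-65090941 and Tlr6 (ENSMUSG00000051498) at chr5:65108704-65203497, both on the minus strand. Tlr2 (ENSMUSG00000027995) lay at chr3:83743576-83749074, Tlr3 (ENSMUSG00000031639) at chr8:45848702-45864117 and Ticam1 (ENSMUSG00000047123) at chr17:56576319-56583786, on the minus strand. Tlr4 (ENSMUSG00000039005) lay at chr4:66745783-66849936, Ly96 (ENSMUSG00000025779) at chr1:16758275-16779961 and Lbp (ENSMUSG00000016024) at chr2:158148409-158174800, on the plus strand. All 10 are protein-coding genes. The counts are of reads over the exons of each gene, UTRs included.

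The 250 bases before the transcription start of Tlr2, Tlr3 and Ticam1 are printed from the RefSeq promoter table, which uses the older build GRCm38.p6, so that its positions differ from those above. Tlr2 and Tlr3 are shown because they rose with palmitate and their windows held a match to the κB motif, the letters NF-κB binds, in capitals. Ticam1 is shown beside them as the member that passed the test in no comparison. The windows lie at chr3:83841609-83841858, chr8:45410381-45410630 and chr17:56276768-56277017, all on the minus strand, and read 5′ to 3′.
Tlr2: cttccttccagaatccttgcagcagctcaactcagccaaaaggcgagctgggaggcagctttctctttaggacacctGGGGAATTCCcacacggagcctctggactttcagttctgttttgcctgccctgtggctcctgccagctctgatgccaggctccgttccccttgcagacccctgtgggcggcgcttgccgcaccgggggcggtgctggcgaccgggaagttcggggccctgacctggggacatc
Tlr3: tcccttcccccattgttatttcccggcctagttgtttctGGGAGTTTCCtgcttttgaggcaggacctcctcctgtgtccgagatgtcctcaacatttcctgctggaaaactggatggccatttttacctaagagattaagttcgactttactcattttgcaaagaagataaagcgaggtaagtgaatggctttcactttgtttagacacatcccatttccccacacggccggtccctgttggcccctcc
Ticam1: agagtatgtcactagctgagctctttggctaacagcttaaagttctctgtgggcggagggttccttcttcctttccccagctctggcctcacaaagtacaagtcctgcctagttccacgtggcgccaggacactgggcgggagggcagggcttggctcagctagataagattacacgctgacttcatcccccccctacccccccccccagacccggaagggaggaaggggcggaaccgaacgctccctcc

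The motifs searched on both strands were κB (GGGNNNTTCC), the interferon-stimulated response element (TTTCNNTTTC) and the interferon-γ activated site (TTCNNNGAA). Of the 32851 windows of this length in the table, 4.65% held κB, 2.98% the response element and 7.02% the activated site. The κB match of Tlr2, GGGGAATTCC, lay 173 to 164 bases before the start, and that of Tlr3, GGGAGTTTCC, lay 211 to 202 bases before it. Tlr6 had 2 windows, of which the first held a pair of overlapping response elements and the second a κB match. Tlr1 had 2 windows, of which 1 held an activated site and the other no match. Thus Tlr6, which fell with both agents, held a κB match, and Tlr1, which rose with palmitate, held none. A link between the matches and the changes was not tested. The Ticam1 window held none of the 3 motifs. The κB matches overlapped no other motif. Windows of 5 of the 10 genes were read, and Tlr4, Ly96, Lbp, Cd14 and Ticam2 are not among them. These matches are of letters only, and no binding was measured.

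Library depth ran from 21234789 to 92752515 counts on genes. The deepest library was palmitate replicate 10, and the next held 35329711. Levels are given as CPM, counts scaled to library size with TMM factors of 0.970 to 1.04. A count of 3 was taken as the floor of detection, 0.0331 to 0.146 CPM by library, which covers counting error only. Differences were tested with edgeR's quasi-likelihood test on all 16 libraries, with Benjamini-Hochberg adjustment over 16306 tested genes, and a gene is said to have risen or fallen where its adjusted p was under 0.05. Fold changes are those of the fit, with their standard error (SE). All 8 fibroblast markers on the list (collagens, Pdgfra, Pdgfrb, Dcn, Lum and Thy1) were above the floor, with a summed level of 24197 to 28339 CPM. The summed level of 6 endothelial markers was 1.93 to 2.75 CPM, and that of 6 epithelial markers 0.563 to 1.35 CPM. Their part in the members of low level was not tested. In bulk RNA, fewer cells making a transcript and less transcript per cell cannot be told apart.

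Palmitate raised 6 of the 9 genes tested and lowered none. Among all tested genes 19.8% rose and 17.5% fell in that comparison. Lbp and Tlr2 changed by the most, 11.6-fold and 7.23-fold, followed by Tlr1, Cd14 and Tlr3 at 2.22-fold to 2.54-fold and Tlr4 at 1.33-fold. IL-1β raised 3 of the 9, Tlr2, Lbp and Tlr3, and lowered none, where 10.1% of all tested genes rose and 4.97% fell. With both agents 7 rose and 1, Tlr6, fell, where 24.8% of all tested genes rose and 22.5% fell. No fall with palmitate or with IL-1β reached an unadjusted p under 0.05 in edgeR, and DESeq2 called 0 falls in both comparisons. Ticam2 had too few counts to be tested. All 3 comparisons share the 4 BSA libraries. The median log2 fold change of the 9 was 1.15 with palmitate, 0.16 with IL-1β and 1.03 with both. The median over all tested genes lay within 0.005 of 0 in these comparisons, near where TMM scaling places it.

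**Figure D1:**
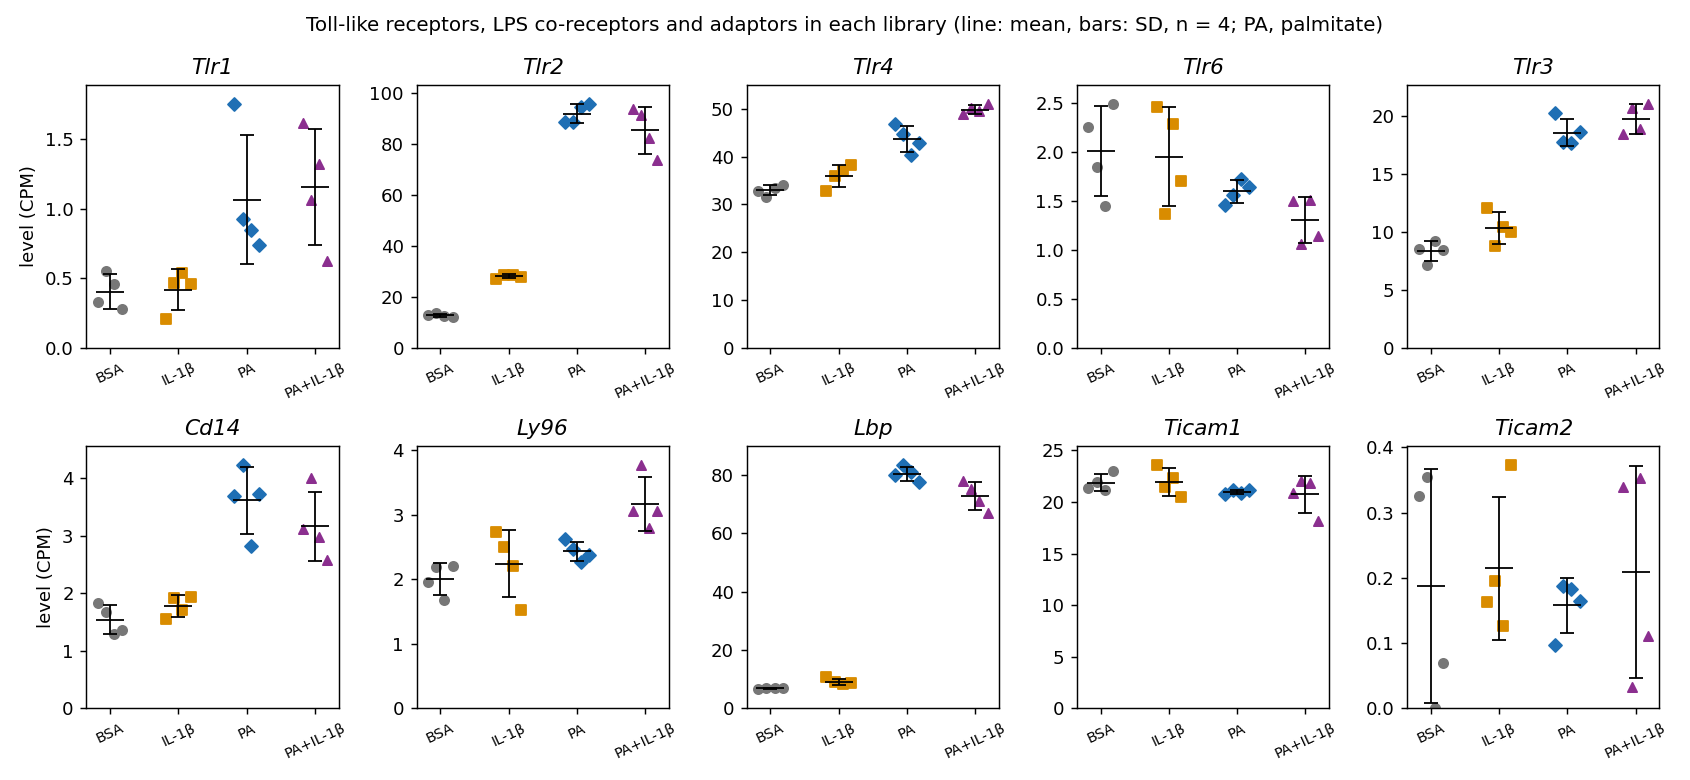
Level of each gene in CPM (vertical axes, from 0) in the 4 libraries of each condition, with the mean and SD (n = 4). Tlr2 and Lbp libraries treated with palmitate, alone or with IL-1β, sit at 66.9 CPM or more, above every BSA and IL-1β library, while Ticam1 libraries of the 4 conditions lie between 18.2 and 23.6 CPM.

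Tlr2, the lipopeptide receptor, was measured at 12.6, 13.5, 12.6 and 12.0 CPM in the BSA libraries and at 26.9, 28.7, 28.4 and 27.9 CPM in the IL-1β libraries. It stood at 88.6, 88.5, 94.6 and 95.4 CPM with palmitate and at 93.6, 91.4, 82.3 and 73.6 CPM with both agents. The IL-1β libraries lay wholly above BSA and wholly below the palmitate libraries, and the 2 palmitate conditions overlapped. Against BSA the log2 fold change was 1.14 (SE 0.07, adjusted p = 2.7e-14) with IL-1β, 2.85 (SE 0.06, adjusted p = 5.89e-26) with palmitate and 2.75 (SE 0.06, adjusted p = 1.09e-25) with both. Adding IL-1β to palmitate gave a log2 difference of −0.10 (95% interval −0.22 to 0.01, adjusted p = 0.266).

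Tlr4, the LPS receptor, moved in a narrower range. It stood at 32.8, 31.5, 33.5 and 34.0 CPM in BSA, 32.9, 35.9, 37.0 and 38.2 CPM in IL-1β, 46.9, 44.8, 40.4 and 42.9 CPM in palmitate, and 48.9, 50.2, 49.5 and 50.9 CPM in palmitate + IL-1β. The palmitate libraries lay above all BSA and IL-1β libraries, and those with both agents lay above the palmitate libraries. The log2 fold change against BSA was 0.41 (SE 0.05, adjusted p = 1.22e-07) with palmitate and 0.60 (SE 0.05, adjusted p = 2.75e-11) with both, while IL-1β alone gave 0.13 (SE 0.05, adjusted p = 0.104) and missed the threshold. The IL-1β comparison passed without IL-1β replicate 5 (adjusted p = 0.0325, with a range of 0.0325 to 0.317 over 13 alternatives).

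Tlr1 and Tlr6, the partners of Tlr2, were among the least abundant of the 10. Tlr1 stood at 0.326, 0.549, 0.458 and 0.280 CPM in BSA, 0.205, 0.469, 0.538 and 0.456 CPM in IL-1β, 1.75, 0.926, 0.845 and 0.739 CPM in palmitate, and 1.61, 1.06, 1.32 and 0.626 CPM with both. Its BSA libraries rested on 8 to 17 counts, and its palmitate and palmitate + IL-1β libraries lay above all others although they spread widely. It rose by 1.34 (SE 0.33, adjusted p = 0.00158) on the log2 scale with palmitate and by 1.53 (SE 0.33, adjusted p = 0.000239) with both, against 0.07 (SE 0.39, adjusted p = 0.931) with IL-1β. Up to 27.0% of a Tlr1 transcript is shared, at 95% identity or more, with transcripts of other genes, so its level is uncertain.

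Tlr6 moved the other way. It stood at 2.25, 1.84, 1.45 and 2.48 CPM in BSA, 2.46, 1.37, 2.28 and 1.70 CPM in IL-1β, 1.46, 1.55, 1.73 and 1.64 CPM in palmitate, and 1.50, 1.06, 1.51 and 1.14 CPM with both. Libraries of all 4 conditions overlapped. Tlr6 fell with both agents by 0.62 on the log2 scale (SE 0.20, adjusted p = 0.0108), and gave −0.34 (SE 0.19, adjusted p = 0.173) with palmitate and −0.04 (SE 0.19, adjusted p = 0.92) with IL-1β. The fall with both agents did not pass without BSA replicate 4 (adjusted p = 0.0527, with a range of 0.00307 to 0.0527 over 13 alternatives).

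Tlr3, the endosomal receptor of double-stranded RNA, stood at 8.46, 7.14, 9.19 and 8.46 CPM in BSA and at 12.1, 8.75, 10.4 and 9.94 CPM in IL-1β. With palmitate it stood at 20.2, 17.7, 17.7 and 18.6 CPM, and with both agents at 18.4, 20.6, 18.9 and 21.0 CPM. The BSA and IL-1β libraries overlapped, and every library with palmitate lay above every library without it. The log2 fold change was 1.15 (SE 0.08, adjusted p = 8.16e-13) with palmitate, 1.25 (SE 0.08, adjusted p = 7.7e-14) with both and 0.31 (SE 0.09, adjusted p = 0.018) with IL-1β. The IL-1β rise did not pass without BSA replicate 2 (adjusted p = 0.0996), without IL-1β replicate 5 (adjusted p = 0.101) or when only the 8 libraries compared were fitted (adjusted p = 0.0505), with a range of 0.00478 to 0.101 over 13 alternatives. Of the Tlr3 exon bases 8.19% overlap the antisense gene Gm45542, and of those of Tlr4 3.35% overlap Gm69151, with counting done by strand.

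Lbp, the LPS-binding protein that liver makes in the acute phase, was measured here in fibroblasts at 6.75, 7.17, 7.02 and 6.85 CPM in BSA and 10.6, 9.18, 8.29 and 8.70 CPM in IL-1β. With palmitate it stood at 79.9, 83.4, 80.9 and 77.6 CPM, and with both agents at 77.9, 75.2, 71.03 and 66.9 CPM. IL-1β libraries lay above BSA, and palmitate libraries lay above both. The log2 fold change against BSA was 0.40 (SE 0.08, adjusted p = 0.000335) with IL-1β, 3.53 (SE 0.06, adjusted p = 2.31e-28) with palmitate and 3.39 (SE 0.06, adjusted p = 5.34e-28) with both.

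Cd14, the co-receptor that hands LPS to Tlr4, stood at 1.84, 1.68, 1.30 and 1.36 CPM in BSA, 1.55, 1.91, 1.71 and 1.95 CPM in IL-1β, 3.69, 4.23, 2.83 and 3.74 CPM in palmitate, and 3.12, 4.00, 2.99 and 2.58 CPM with both. The libraries with palmitate lay above those without it. Cd14 rose by 1.24 (SE 0.16, adjusted p = 2.29e-07) on the log2 scale with palmitate and by 1.03 (SE 0.17, adjusted p = 5.87e-06) with both, against 0.19 (SE 0.19, adjusted p = 0.554) with IL-1β. Cd14 is also a monocyte gene, so 10 leukocyte and macrophage markers were read in the same libraries. Tyrobp was at 0 in all 16 libraries, and Adgre1, Itgam and Ptprc had 0 to 7 counts. Csf1r, the receptor of a macrophage growth factor, had 24 to 122 counts per library and mean levels of 1.45 CPM in BSA, 1.82 with IL-1β, 1.25 with palmitate and 1.47 with both, against 1.54 CPM of Cd14 in BSA. Cd68 had 18 to 83 counts and Lyz2 9 to 43, at mean levels of 1.14 and 0.923 CPM in BSA, while Fcer1g, Cx3cr1 and Itgax had 0 to 13 counts. The summed level of the 10 leukocyte and macrophage markers was 2.84 to 4.74 CPM in BSA, 3.73 to 4.15 CPM in IL-1β, 3.10 to 4.07 CPM in palmitate and 3.61 to 4.40 CPM with both. These sums exceeded Cd14 in BSA, and their part in the Cd14 result was not tested.

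Ly96 (MD-2), which completes the Tlr4 binding site, stood at 1.95, 2.20, 1.68 and 2.20 CPM in BSA, 2.74, 2.50, 2.22 and 1.53 CPM in IL-1β, 2.62, 2.48, 2.28 and 2.38 CPM in palmitate, and 3.06, 3.77, 2.80 and 3.06 CPM with both. It rose with both agents by 0.65 (SE 0.16, adjusted p = 0.000864) on the log2 scale. With palmitate alone the value was 0.28 (95% interval −0.05 to 0.61, adjusted p = 0.183), although the palmitate and BSA libraries did not overlap. With IL-1β it was 0.16 (SE 0.17, adjusted p = 0.591).

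Ticam1 (TRIF), the adaptor of Tlr3 and of the interferon branch of Tlr4, stood at 21.3, 21.9, 21.1 and 23.0 CPM in BSA, 23.6, 21.4, 22.3 and 20.5 CPM in IL-1β, 20.8, 21.1, 20.9 and 21.2 CPM in palmitate, and 20.9, 22.0, 21.8 and 18.2 CPM with both. Libraries of the 4 conditions overlapped, and no comparison passed. The 95% interval of its log2 fold change was −0.18 to 0.07 with palmitate, −0.12 to 0.13 with IL-1β and −0.20 to 0.05 with both. Ticam2 (TRAM) had 0 to 17 counts per library, with means of 0.188, 0.215, 0.158 and 0.209 CPM in BSA, IL-1β, palmitate and palmitate + IL-1β. Of its exon bases 65.3% overlap Tmed7 on the same strand, and HTSeq leaves out reads that fall on 2 genes, so these counts understate Ticam2 and give no comparison. Ticam2 and Cd14 lie on chromosome 18.

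**Figure D2:**
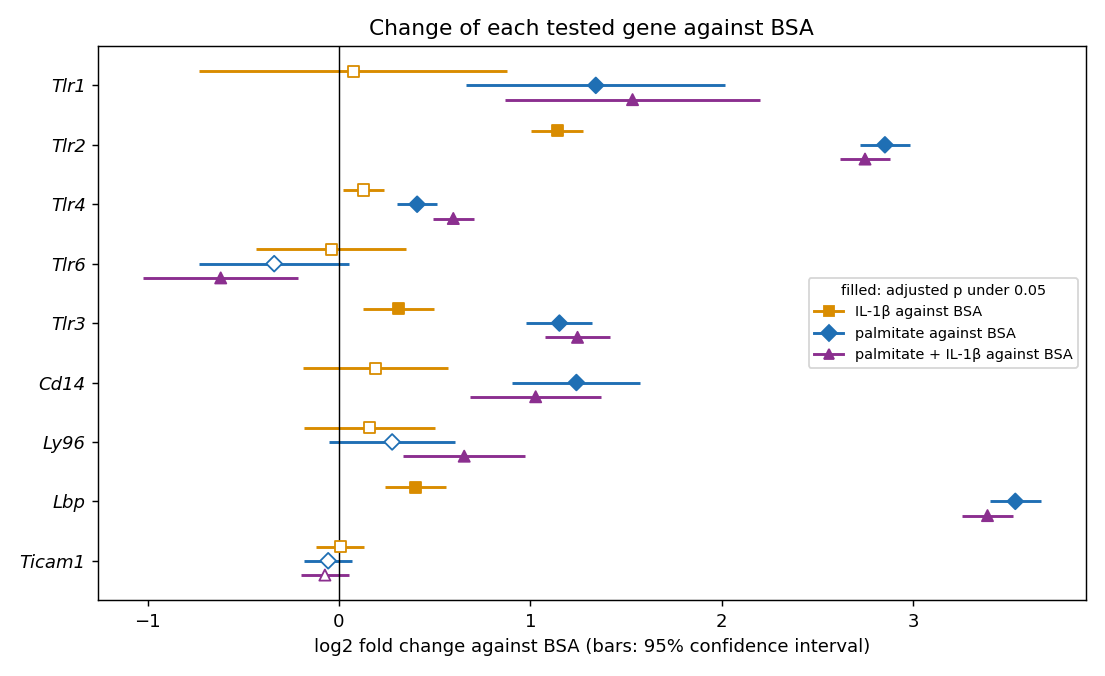
Log2 fold change against BSA (horizontal axis) of the 9 tested genes with IL-1β, palmitate and palmitate + IL-1β, with 95% confidence intervals. Filled points have an adjusted p under 0.05, and the Lbp and Tlr2 points with palmitate lie farthest to the right, at 3.53 and 2.85.

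Setting the treated conditions side by side, palmitate exceeded IL-1β in 6 of the 9 genes, namely Tlr1, Tlr2, Tlr3, Tlr4, Cd14 and Lbp, and fell below it in none, by edgeR with 0 at an unadjusted p under 0.05 and 0 by DESeq2. Among all tested genes 16.5% were higher and 15.2% lower in that comparison. Adding palmitate to IL-1β raised the same 6 together with Ly96 and lowered Tlr6, where 18.9% of all tested genes rose and 16.1% fell. The log2 fold changes of that comparison were 2.99 (SE 0.06, adjusted p = 4.06e-26) for Lbp, 1.61 (SE 0.06, adjusted p = 5.88e-20) for Tlr2, 0.94 (SE 0.08, adjusted p = 9.31e-11) for Tlr3, 0.49 (SE 0.16, adjusted p = 0.014) for Ly96 and −0.58 (SE 0.20, adjusted p = 0.0261) for Tlr6. The Ly96 call was lost without IL-1β replicate 8 or palmitate + IL-1β replicate 14 (adjusted p up to 0.0744), and the Tlr6 call without IL-1β replicate 5 or 7 or palmitate + IL-1β replicate 14 or 16 (adjusted p up to 0.108). The study's text gives a large rise of Cxcl1, Cxcl2, Cxcl5, Ccl2 and Il6 with IL-1β and a minor one with palmitate alone. It also reports quantitative PCR after a shorter treatment, in which IL-1β raised Cxcl1 and Il6 and added palmitate strengthened the rise. Levels of those genes are not given here. Here Tlr2, whose log2 CPM followed Cxcl5 at r = 0.996 over the 16 libraries, stood higher with palmitate than with IL-1β. Conditions are named here as in the labels, and all statements on palmitate or IL-1β rest on those names. The cause of this difference from the study's text was not tested.

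Adding IL-1β to palmitate raised 1 of the 9 genes, Tlr4, and lowered none, where 5.71% of all tested genes rose and 4.1% fell. At an unadjusted p under 0.05 edgeR gave 1 fall, that of Lbp, and DESeq2 called 0. The Tlr4 difference was 0.19 on the log2 scale (SE 0.05, adjusted p = 0.0134), and it did not pass without palmitate replicate 11 (adjusted p = 0.0815, with a range of 0.00805 to 0.0815 over 13 alternatives). Lbp gave −0.15 (SE 0.05, adjusted p = 0.073), which passed with no expression filter, without palmitate + IL-1β replicate 13 and when only the 8 libraries compared were fitted (adjusted p = 0.03 in the last, with a range of 0.03 to 0.249 over 13 alternatives). Ly96 gave 0.38 (SE 0.15, adjusted p = 0.12), with libraries that did not overlap.

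The interaction asks whether the palmitate effect differed with and without IL-1β. It was negative for Tlr2 and Lbp and passed for no other of the 9. None of the 9 had a positive interaction at an unadjusted p under 0.05 in edgeR or a call by DESeq2, and among all tested genes 0.159% had a positive and 1.83% a negative interaction. For Tlr2 the palmitate effect was 2.85 on the log2 scale without IL-1β and 1.61 with it, an interaction of −1.24 (SE 0.09, adjusted p = 5.31e-12). For Lbp the effects were 3.53 and 2.99, an interaction of −0.55 (SE 0.09, adjusted p = 0.000292). For Tlr3 the interaction was −0.21 (95% interval −0.46 to 0.03, adjusted p = 0.576), for Cd14 −0.40 (95% interval −0.89 to 0.08, adjusted p = 0.606) and for Tlr4 0.06 (95% interval −0.09 to 0.21, adjusted p = 0.86). Thus the combined level of Tlr2 and Lbp lay below the product of the separate fold changes.

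**Figure D3:**
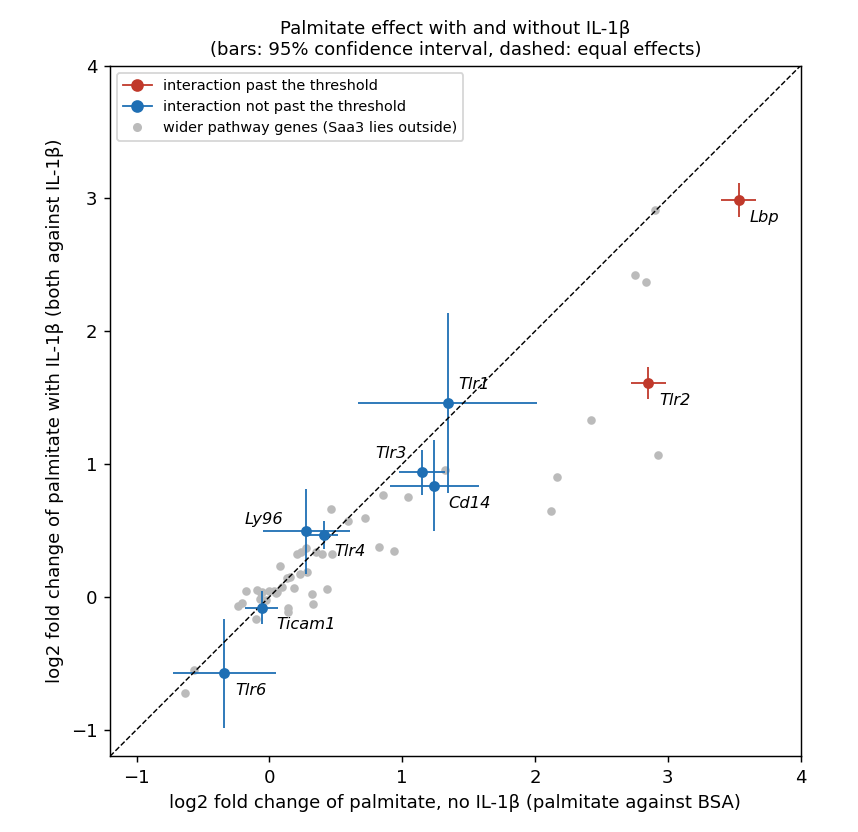
Log2 fold change of palmitate without IL-1β (horizontal axis) and with IL-1β (vertical axis), with 95% confidence intervals and a dashed line of equal effects. Tlr2, at 2.85 and 1.61, and Lbp, at 3.53 and 2.99, lie below the line and are the genes whose interaction passed, while grey points are the wider pathway genes.

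Levels of different genes were compared per length, as CPM per kb of exon. In BSA the order was Ticam1 at 7.30 ± 0.274 CPM per kb (SD, n = 4), Tlr4 at 4.70 ± 0.154, Tlr2 at 2.31 ± 0.112, then Ly96, Tlr3 and Lbp at 1.62, 1.55 and 1.43, Cd14 at 0.891, Tlr6 at 0.413, Tlr1 at 0.119 and Ticam2 at 0.0324. Ly96, Tlr3 and Lbp overlapped as neighbours in that order, and the others did not. With IL-1β, Tlr4 at 5.14 and Tlr2 at 5.09 CPM per kb overlapped. With palmitate, Tlr2 at 16.7 ± 0.678 and Lbp at 16.5 ± 0.493 CPM per kb led and overlapped, followed by Ticam1 at 7.02 and Tlr4 at 6.24, which did not overlap. With both agents Tlr2 and Lbp again led, at 15.5 ± 1.66 and 15.0 ± 0.995 CPM per kb, and Tlr4 and Ticam1 overlapped at 7.12 and 6.93.

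**Figure D4:**
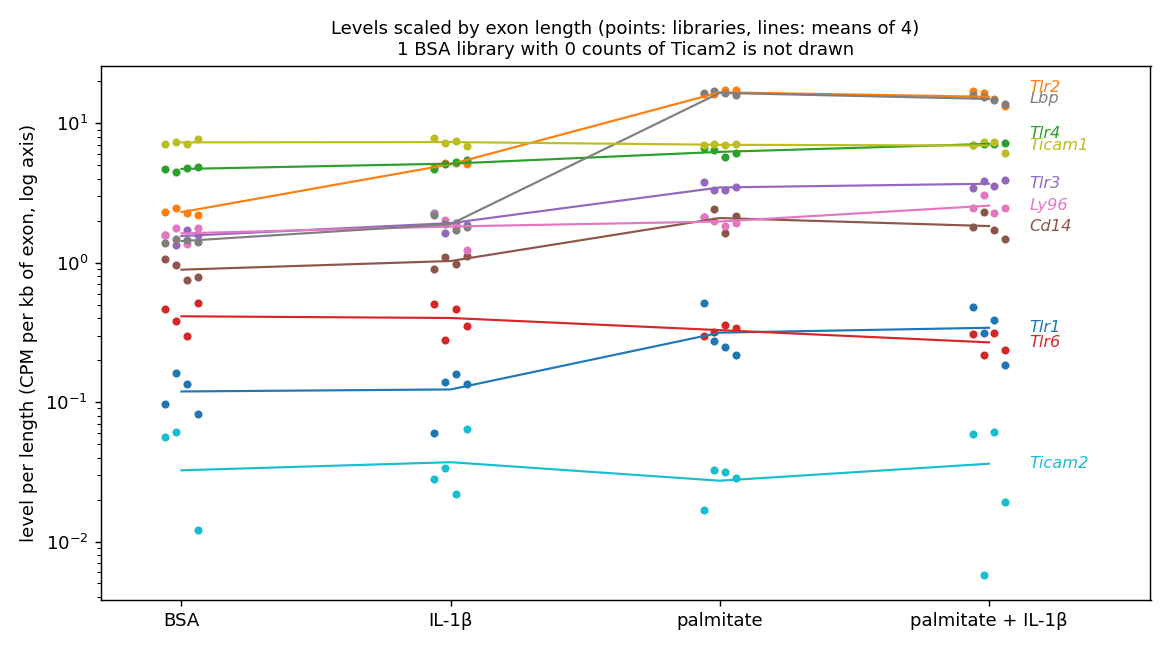
Level per length in CPM per kb of exon (log axis) of the 10 genes in the 4 conditions, with points for libraries and lines through the means. Lbp and Tlr2 pass from 1.43 and 2.31 CPM per kb in BSA to 16.5 and 16.7 with palmitate, above Ticam1 and Tlr4.

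The order depended on the length used. With the length of the canonical transcript, an alternative chosen after seeing the data, 5 of 10 genes kept their rank in BSA, 5 with IL-1β, 4 with palmitate and 8 with both. Tlr4 then led in BSA ahead of Ticam1, Tlr2 led with IL-1β, where Ticam1 passed from rank 1 to rank 3, and Lbp led ahead of Tlr2 with palmitate and with both agents.

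Ratios of partners were compared library by library, with an exact two-sided permutation test of 4 against 4, whose smallest p is 0.0286, adjusted over 15 tests. All ratios that passed sat at that smallest p, so each adjusted p depends on how many others did. All of them except Cd14 over Tlr4 include Tlr2. Ratios between genes are of CPM per kb. Tlr2 over Tlr4 was 0.451 to 0.546 in BSA, 0.929 to 1.04 with IL-1β, 2.41 to 2.99 with palmitate and 1.84 to 2.44 with both. Each treated condition lay above BSA, by 1.02, 2.45 and 2.15 on the log2 scale (exact permutation p = 0.0286, adjusted p = 0.0429 each). Thus Tlr2 transcript stood below Tlr4 in BSA, near it with IL-1β and above it with palmitate, by union exon length.

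Tlr6 over Tlr2 was 0.131 to 0.234 in BSA, 0.0540 to 0.103 with IL-1β, 0.0186 to 0.0207 with palmitate and 0.0131 to 0.0208 with both. Tlr1 over Tlr2 was 0.0378 to 0.0661 in BSA, and 0.0124 to 0.0308, 0.0126 to 0.0321 and 0.0138 to 0.0281 in the same order. Both ratios were lower than BSA in each of the 3 conditions (exact permutation p = 0.0286, adjusted p = 0.0429 each). Tlr2 is the denominator of both, so these falls carry the Tlr2 rise given above and are not separate results. With IL-1β neither Tlr1 nor Tlr6 itself passed. Tlr1 rose with palmitate by less than Tlr2, and its ratio fell by 1.49 on the log2 scale. Cd14 over Tlr4 was 0.157 to 0.226 in BSA and 0.284 to 0.382 with palmitate, higher by 0.82 on the log2 scale (exact permutation p = 0.0286, adjusted p = 0.0429). It differed by 0.09 with IL-1β (exact permutation p = 0.543, adjusted p = 0.626) and by 0.44 with both (exact permutation p = 0.0857, adjusted p = 0.117). Ly96 over Tlr4 was 0.284 to 0.395 in BSA and 0.314 to 0.320 with palmitate, a difference of −0.12 on the log2 scale (exact permutation p = 0.314, adjusted p = 0.393). Its difference was 0.01 with IL-1β (exact permutation p = 0.943, adjusted p = 0.943) and 0.06 with both (exact permutation p = 0.686, adjusted p = 0.735). The ratio of Ticam2 to Ticam1 could not be computed because a BSA library had 0 counts of Ticam2.

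The rest of the pathway was taken from 6 lists of 64 genes, of which 49 were tested. Palmitate raised 26 and lowered 4 of the 49, IL-1β raised 18 and lowered 2, and both agents raised 30 and lowered 5. Over all tested genes the shares that rose and fell were 19.8% and 17.5% with palmitate, 10.1% and 4.97% with IL-1β, and 24.8% and 22.5% with both. The median log2 fold change of the 49 was 0.24, 0.13 and 0.40. Palmitate + IL-1β exceeded palmitate in 11 and fell below it in 2, where 5.71% of all tested genes were higher and 4.1% lower. Of the 49, 0 had a positive and 9 a negative interaction by edgeR, with 1 positive at an unadjusted p under 0.05 and 0 by DESeq2, where 0.159% of all tested genes had a positive and 1.83% a negative interaction. The 9 were Saa3, Nod2, Tnfaip3, Nfkbia, Casp4, Tnip1, Traf3, Tnc and Rigi.

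**Figure D5:**
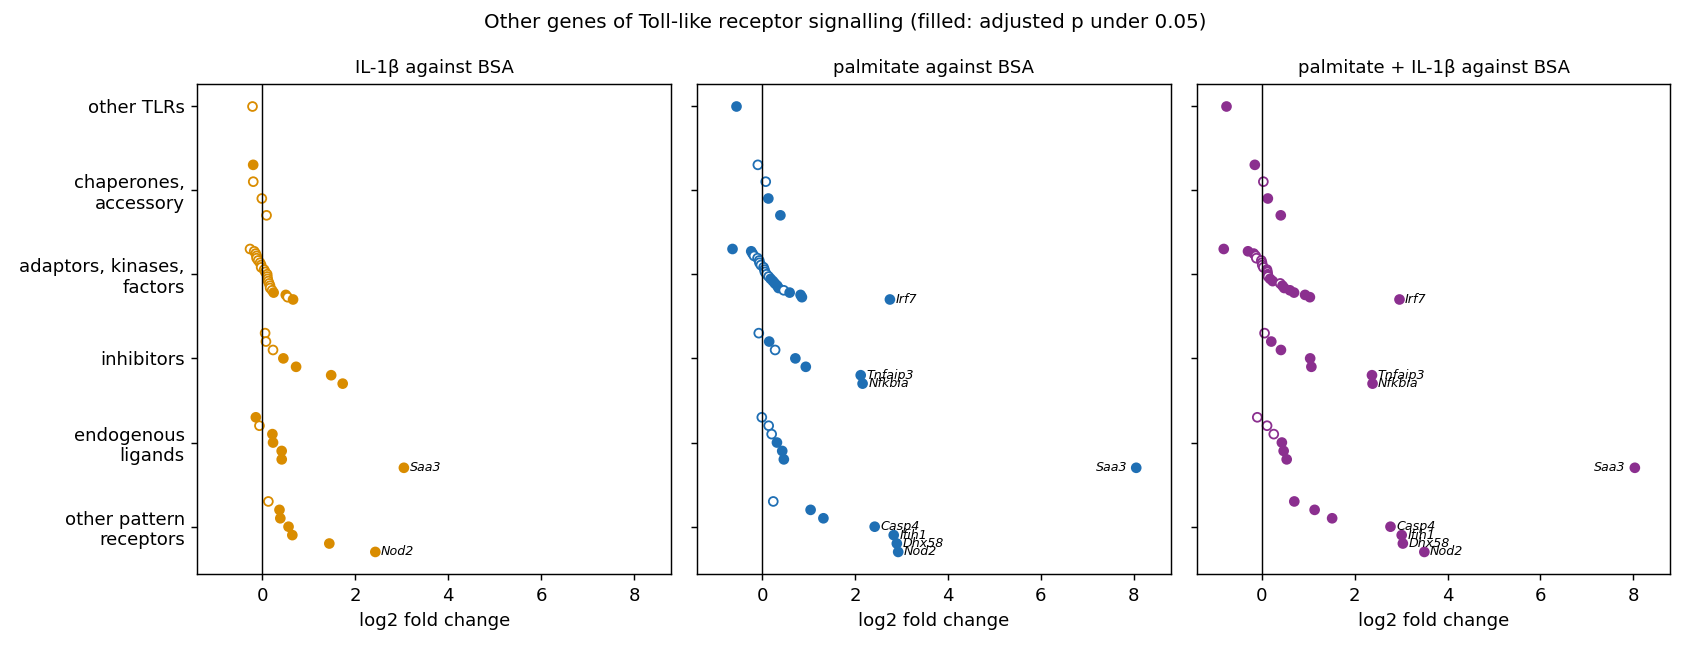
Log2 fold change against BSA (horizontal axes) of the tested genes of 6 lists (rows) with IL-1β, palmitate and both agents. Filled points have an adjusted p under 0.05, and with palmitate Saa3 lies at 8.05 while the other genes lie between −0.64 and 2.93.

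Of the 7 other Toll-like receptors on the list only Tlr5, the flagellin receptor, had enough counts to be tested, and Tlr7, Tlr8, Tlr9, Tlr11, Tlr12 and Tlr13 had 0 to 5 counts per library. Tlr5 stood at 5.70 ± 0.814 CPM in BSA (SD, n = 4), 4.87 ± 0.762 with IL-1β, 3.84 ± 0.0386 with palmitate and 3.32 ± 0.357 with both. It fell by 0.57 (SE 0.12, adjusted p = 0.000293) on the log2 scale with palmitate and by 0.77 (SE 0.12, adjusted p = 4.15e-06) with both, and gave −0.22 (SE 0.12, adjusted p = 0.244) with IL-1β. Of the 4 tested chaperones and accessory proteins, palmitate raised 2, Unc93b1 and Hsp90b1, and both agents raised the same 2, where 19.8% and 24.8% of all tested genes rose. IL-1β raised 0 of the 4 (0 at an unadjusted p under 0.05 in edgeR, 0 by DESeq2). Cnpy3, a chaperone of Toll-like receptors, fell by 0.20 on the log2 scale with IL-1β (SE 0.06, adjusted p = 0.0279) and by 0.15 with both (SE 0.06, adjusted p = 0.0474), where 4.97% and 22.5% of all tested genes fell. Unc93b1, which moves endosomal Toll-like receptors out of the endoplasmic reticulum, rose with palmitate by 0.39 (SE 0.10, adjusted p = 0.00285) on the log2 scale. Its palmitate and BSA libraries overlapped.

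Downstream, palmitate raised 9 and lowered 3 of 23 adaptors, kinases and transcription factors, IL-1β raised 3 (7 at an unadjusted p under 0.05, 5 by DESeq2) and lowered none (1 at an unadjusted p under 0.05, 0 by DESeq2), and both agents raised 11 and lowered 3. Over all tested genes 19.8% rose and 17.5% fell with palmitate, 10.1% and 4.97% with IL-1β, and 24.8% and 22.5% with both, so the rises with IL-1β and the falls with palmitate stood at about the share over all genes or below it. Myd88, the adaptor that Tlr1, Tlr2, Tlr4 and Tlr6 share with the IL-1 receptor, rose with palmitate by 0.35 (SE 0.06, adjusted p = 2.93e-05) on the log2 scale and gave 0.14 (SE 0.06, adjusted p = 0.139) with IL-1β. Irf7, a transcription factor of interferon genes, rose with palmitate by 2.75 (SE 0.19, adjusted p = 1.55e-09) and gave 0.54 (SE 0.23, adjusted p = 0.137) with IL-1β. The falls with palmitate were led by Peli2, a ubiquitin ligase of the pathway, at −0.64 (SE 0.05, adjusted p = 7.53e-13), and its relative Peli1 gave −0.23 (SE 0.05, adjusted p = 0.000336). With both agents Peli2 fell by 0.82 on the log2 scale (SE 0.05, adjusted p = 1.31e-15), and Ube2n, a ubiquitin-conjugating enzyme that acts with Traf6, fell by 0.30 (SE 0.05, adjusted p = 5.81e-06).

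Of 7 tested inhibitors of the pathway palmitate raised 5, IL-1β 4 and both agents 6, and none fell (0 at an unadjusted p under 0.05 in edgeR, 0 by DESeq2). The shares of all tested genes that rose were 19.8%, 10.1% and 24.8%, and 17.5%, 4.97% and 22.5% fell. Tnfaip3 (A20), a ubiquitin-editing enzyme that curbs NF-κB, stood at 8.08 ± 0.506 CPM in BSA (SD, n = 4), 26.8 ± 2.40 with IL-1β, 35.3 ± 0.570 with palmitate and 42.0 ± 1.73 with both. It rose with IL-1β by 1.73 (SE 0.07, adjusted p = 5.43e-19) on the log2 scale. Nfkbia, which holds NF-κB in the cytoplasm, rose by 2.16 (SE 0.05, adjusted p = 2.4e-25) with palmitate and by 1.48 (SE 0.05, adjusted p = 5.4e-20) with IL-1β. The interaction was −1.48 (SE 0.09, adjusted p = 1.04e-13) for Tnfaip3 and −1.26 (SE 0.07, adjusted p = 1.85e-14) for Nfkbia, beside −1.24 for Tlr2. Of the 7 inhibitors 3 passed with a negative interaction, these and Tnip1, and 4 did not pass, where 1.83% of all tested genes had a negative interaction.

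Of 7 tested proteins proposed as endogenous ligands of Tlr2 and Tlr4, palmitate raised 4 and lowered none (0 at an unadjusted p under 0.05 in edgeR, 0 by DESeq2), IL-1β raised 5 and lowered 1, and both agents raised 4. With the same 3 treatments 19.8%, 10.1% and 24.8% of all tested genes rose, and 17.5%, 4.97% and 22.5% fell. Saa3, a serum amyloid A of the acute phase, had 1 to 5 counts per library in BSA, 16 to 22 with IL-1β and 445 to 2196 with palmitate. Its log2 fold change was 8.05 (SE 0.17, adjusted p = 1.76e-26) with palmitate, 3.05 (SE 0.36, adjusted p = 1.96e-07) with IL-1β and 8.03 (SE 0.17, adjusted p = 1.55e-26) with both. Because its BSA libraries held 10 counts in all, the pooled ratio with palmitate was 283, with an exact 95% counting interval of 154 to 591. Bgn, the matrix proteoglycan biglycan, fell with IL-1β by 0.14 on the log2 scale (SE 0.04, adjusted p = 0.0285).

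Of 7 tested pattern receptors outside the Toll-like family palmitate raised 6, IL-1β 6 and both agents 7, and none fell (0 at an unadjusted p under 0.05 in edgeR, 0 by DESeq2). Beside these, 19.8%, 10.1% and 24.8% of all tested genes rose, and 17.5%, 4.97% and 22.5% fell. Nod2, which senses muramyl dipeptide of bacterial cell walls, stood at 0.551 ± 0.0262 CPM in BSA (SD, n = 4), 2.98 ± 0.200 with IL-1β, 4.30 ± 0.543 with palmitate and 6.27 ± 0.762 with both. It rose by 2.43 (SE 0.18, adjusted p = 4.33e-12) on the log2 scale with IL-1β, by 2.93 (SE 0.17, adjusted p = 1.37e-15) with palmitate and by 3.50 (SE 0.16, adjusted p = 3.65e-18) with both. Dhx58, a regulator of cytoplasmic RNA sensing, rose by 2.90 (SE 0.16, adjusted p = 5.58e-12) with palmitate and by 3.04 (SE 0.16, adjusted p = 1.62e-12) with both, against 0.13 (SE 0.22, adjusted p = 0.765) with IL-1β.

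The genes outside the family whose log2 CPM followed a member most closely over the 16 libraries were taken by Pearson's r. These values describe libraries that share 4 conditions. For Tlr2 they were Cxcl5 (r = 0.996), Cx3cl1 (r = 0.995) and Fgfr1 (r = 0.995), of which the first pair are chemokines. For Lbp they were Mmp3, Gas7 and Sod2 (r = 0.996 to 0.997), a matrix protease, a growth arrest gene and the mitochondrial superoxide dismutase. For Tlr3 they were Tomm70a, Irf7 and Ifi47 (r = 0.985 to 0.988), of which Irf7 and Ifi47 are interferon-induced. For Tlr4 they were Wdr3, Bri3bp and Adar (r = 0.974 to 0.978). The low-count members followed others less closely, with Wipi2, Trak2 and Ugt1a7c for Tlr1 (r = 0.901 to 0.918), Ccdc86, Agpat5 and Atmin for Ly96 (r = 0.881 to 0.908) and Nbdy, Gm16244 and Prim1 for Tlr6 (r = 0.822 to 0.878). By Spearman's rank the leading 3 genes were the same for Tlr1. They kept only Ccdc86 for Ly96 and only Prim1 for Tlr6, and none of the genes above for Tlr2, Lbp, Tlr3 and Tlr4. For Tlr2 they were Neurl3, Eeig1 and Serpina3h (rho = 0.956 to 0.962), and for Tlr3 Tasor, Cnbp and Creb5 (rho = 0.962 to 0.968).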

How the data were processed

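RNA of murine gingival fibroblasts was sequenced in 16 libraries, 4 per condition, and each column of the deposited table was matched to its condition through the library name in the labels. Per the labels, the authors trimmed reads with Trimmomatic 0.39, aligned them with STAR 2.7.10a to GRCm39 and counted them per gene with HTSeq 2.0.9, by strand, on GENCODE vM33. The deposited table gives raw counts with no filter or normalization. Rows that name no gene, 18.28% to 21.42% of each library, were left out of library sizes and tests. Reads with several places or genes are uncounted, which lowers genes with shared sequence. A stranded kit for total RNA is named in the labels, and oligo(dT)-primed cDNA in the study's methods.

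Counts were tested with edgeR 4.0.16 in R 4.3.3 (TMM, filterByExpr with a minimum count of 10 and minimum total of 15, robust glmQLFit, glmQLFTest), in 1 fit over the 4 conditions without covariates, which kept 16306 genes. The biological coefficient of variation was 6.08%. DESeq2 1.42.0 was an alternative. Ratio tests used scipy 1.17.1. Promoter windows came from RefSeq (GRCm38.p6), and positions and exon lengths from GENCODE vM39, which held 56323 of the 56941 genes.

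The members and the gene lists were chosen with earlier results of these data known. Genes named from the wider lists are, for each comparison with BSA, the 3 largest rises and falls of called genes with an average log2 CPM of 1 or more and no overlap between libraries, and every other Toll-like receptor tested. Unc93b1, Hsp90b1, Cnpy3, Myd88, Irf7, Nfkbia and the genes named for the interaction fall outside this rule and were chosen after their values were seen. The 3 genes most like each member were taken for members past the threshold against BSA, and those of Cd14 are not reported here. The alternatives were DESeq2, upper-quartile scaling, leaving out the filter, a filter of 10 counts in all libraries, a fit of the 8 libraries alone, a log2 fold change over 1, 0.5 CPM added before ratios, and leaving out each library in turn.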

Additional observations from a re-analysis of the deposited data

Results flagged for a closer look

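The palmitate effect differed between cells with and without IL-1β for Tlr2 and Lbp, by edgeR's interaction test. The interaction was −1.24 on the log2 scale for Tlr2 (adjusted p = 5.31e-12) and −0.55 for Lbp (adjusted p = 0.000292), and over 20 alternatives, apart from a log2 fold change over 1, it ranged from −1.30 to −1.18 for Tlr2 and from −0.60 to −0.47 for Lbp. In both genes all 4 palmitate libraries and all 4 libraries with both agents lay above every IL-1β library. That separation does not bear on the interaction, since Tlr1, Tlr3, Tlr4 and Cd14 showed it too and their interactions did not pass. Among the 40 groups of 4 libraries, 10 genes in 4 conditions, no single library stood apart from its group by Dixon's test, which chance would flag in about 1 in 20 groups.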

How the results depend on the processing

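Over 13 alternatives for each comparison (20 for the interaction, and 1 fewer for Tlr1, which a filter of 10 counts in every library removed), 29 of the 34 calls on the members kept their direction and their side of the threshold, and the other 5 lost it in 11 fits, as given beside each result. Requiring a log2 fold change over 1 left 1 member called with IL-1β, 5 with both agents, 0 for both against palmitate, 3 for both against IL-1β and 1 in the interaction, and of the wider genes 10 with palmitate, 5 with IL-1β, 13 with both, 0 for both against palmitate, 6 for both against IL-1β, 4 for palmitate against IL-1β and 5 in the interaction, because fewer genes pass the larger fold. For both agents against palmitate, 2 members were called with no expression filter and 2 when only the 8 libraries were fitted, and leaving out each library gave 0 to 2. The cause was not tested.

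No member that changed sign had passed the threshold. For Ticam1, IL-1β against BSA was −0.0394 with upper-quartile normalization, −0.0054 with no expression filter, −0.0062 with at least 10 counts in every library and −0.027 to 0.0386 leaving out libraries, its interaction was 0.0126 with upper-quartile normalization and −0.0552 to 0.031 leaving out libraries, and both agents against palmitate gave −0.0497 to 0.0387. Leaving out libraries gave −0.0913 to 0.2854 for Tlr1 and −0.1607 to 0.0942 for Tlr6 with IL-1β against BSA, −0.0269 to 0.4512 for Tlr1 with both against palmitate, −0.0188 to 0.2204 for Ly96 with palmitate against IL-1β and −0.0985 to 0.3773 for the Tlr1 interaction. Ticam1 with both agents against BSA passed with upper-quartile normalization (−0.1527, adjusted p = 0.0397, with a range of 0.0397 to 0.844 over 13 alternatives).

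With 0.5 CPM added, Ly96 over Tlr4 gave −0.008417 with IL-1β and −0.04149 with both agents, against −0.1376 to 0.2149 and −0.02987 to 0.1291 leaving out libraries. Leaving out a library takes the ratio tests to 3 against 4, which cannot pass after adjustment and says nothing about stability. No paired analysis was made. The replicate numbers run on across conditions, and no label says whether libraries of different conditions shared a mouse or culture. Depth limits Tlr1, Tlr6, Ly96 and Cd14, whose levels rested on 5 to 384 counts per library, and leaves Ticam2 untested.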
